A study of Mus musculus with 10 samples.

Results

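The mitochondrially encoded genes are the genes carried by the mitochondrial genome, chromosome M, and they were taken as every gene of the deposited table whose symbol starts with mt-. The rule found 36 of 28165 genes: 13 that encode proteins, 2 that encode ribosomal RNAs (rRNA) and 21 that encode transfer RNAs (tRNA). They were measured by bulk mRNA sequencing of smooth muscle cells from the mouse aorta at embryonic day 15.5, with 5 libraries from Eln-/- embryos, which lack elastin, and 5 from Eln+/+ embryos of the same Eln+/- crosses. All embryos carried the Acta2-GFP reporter, and cells of the digested aorta were sorted as positive for GFP, negative for CD31 (the endothelial protein encoded by Pecam1) and negative for the dead-cell dye DAPI, with no treatment. The labels name no Eln allele and do not say how many embryos went into a library or if replicates came from different embryos. A p-value here therefore reflects library-to-library spread, part of which may be technical.

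The mitochondrial genome is a small circular DNA that is transcribed from both strands into long precursor RNAs. Many of its genes are flanked by tRNA genes, and cutting the precursor at the tRNAs frees the rRNAs and messenger RNAs. The proteins it encodes are core subunits of respiratory complexes I, III and IV and of ATP synthase (complex V), and the proteins of mitochondrial transcription, RNA processing and translation are encoded in the nucleus and imported. In bulk samples, fewer cells of a type and less RNA per cell cannot be told apart.

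Total counts ranged from 26951681 to 63866346 per library. Eln itself had 36, 1, 0, 1 and 0 counts in Eln-/- replicates 1 to 5, against 2409, 105866, 8603, 49878 and 31530 counts in Eln+/+ replicates 1 to 5. Eln-/- replicates 4 and 5 and Eln+/+ replicate 1 stood apart: 15595, 15925 and 15089 genes had at least 1 count there, against 18157 to 22951 genes in each of the rest, and they are called the low-detection libraries. They also gave 5.99%, 5.52% and 5.53% of their counts to CT010467.1, which was treated here as nuclear ribosomal RNA and held 0.225% to 2.96% elsewhere. Their TMM factors were 0.486, 0.847 and 0.562, against 1.13 to 1.37 elsewhere, which raises their scaled levels relative to the other libraries. The 8 smooth muscle markers summed to between 1193 and 3911 CPM in Eln-/- and between 1026 and 2483 CPM in Eln+/+ libraries, where CPM is counts per 1e6 counts of the library size scaled by its TMM factor. All 7 endothelial markers were detected and summed to between 23.7 and 52.9 CPM in Eln-/- and between 14.3 and 59.3 CPM in Eln+/+ libraries, of which Pecam1 gave at most 3.41 CPM in any Eln-/- library, against 7.697 CPM in any Eln+/+ library. The 7 fibroblast markers, all detected, summed to 12098, 3480.3, 2459, 622 and 912 CPM in Eln-/- replicates 1 to 5, against 1327, 7725, 5444, 7808 and 3149.9 CPM in Eln+/+ replicates 1 to 5, lowest in the 3 low-detection libraries. All 7 erythroid markers were detected, and their sum ranged from 23.2 to 5145 CPM in Eln-/- libraries, highest in replicate 4, and from 331 to 18867.5 CPM in Eln+/+ libraries, highest in replicate 1. All 10 cardiomyocyte markers were detected and summed to between 16.8 and 543 CPM in Eln-/- and between 1.58 and 616 CPM in Eln+/+ libraries. The part of these markers, and of the features that set the 3 libraries apart, in the results was not tested.

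Counts of several members are shared with a near-identical copy in the nucleus. A block on chromosome 1, at chr1:24611535-24616197 on the minus strand of GRCm38, holds 7 pseudogenes that match mt-Co1, mt-Co2, mt-Atp6, mt-Co3, mt-Nd3, mt-Nd4l and mt-Nd4 at 99% identity or more. Gm28661 (mt-Co2), Gm10925 (mt-Atp6), Gm28437 (mt-Co3), Gm10222 (mt-Nd4l) and Gm28439 (the first 876 bases of mt-Nd4) match without a mismatch. Over the aligned bases, the copies of mt-Co1 and mt-Nd3 differ from the gene by 1 base each. These are A1066T and T3C, counted from the first base of the mitochondrial gene. For mt-Co1 the alignment covers 483 of the 492 bases of Gm29216 and starts at base 10 of the copy. The stretches around these mismatches are from GENCODE release M21 transcripts on GRCm38, with the base that differs in capitals. They are shown because, over the aligned bases, they are what separates a gene from its copy. They lie at chrM:6390-6413 (plus strand) for mt-Co1, chr1:24616165-24616188 (minus strand) for Gm29216, chrM:9459-9481 (plus strand) for mt-Nd3 and chr1:24613097-24613119 (minus strand) for Gm28438.
mt-Co1: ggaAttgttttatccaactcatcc
Gm29216: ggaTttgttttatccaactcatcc
mt-Nd3: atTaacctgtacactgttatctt
Gm28438: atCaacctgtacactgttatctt

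The 7 copies held 2244312 counts over the 10 libraries, against 5927429 in the 36 mitochondrial genes. For mt-Co3, between 49.97% and 49.99% of the summed counts of gene and copy were assigned to the copy in the libraries of both genotypes. The copy's share ranged from 44.5% to 50.5% for mt-Co2, from 37.6% to 49.8% for mt-Atp6 and from 38.7% to 70.2% for mt-Nd4l. The gene mt-Nd4l itself had 8 to 2596 counts in a library. The mt-Co1 copy, which aligns with 483 of 1545 bases, held 9.08% to 31.8%, the mt-Nd3 copy 1.34% to 2.51% and the mt-Nd4 copy 0.0351% to 1.08%. For the 5 copies with no mismatch, RNA of the mitochondrial gene and of its copy cannot be told apart over the matched bases. The same holds for the copies of mt-Co1 and mt-Nd3 over the aligned bases other than the mismatch. All other nuclear matches found held at most 88.3 counts in a library. Only matches of at least 100 aligned bases were kept. Copies of the tRNA genes, which are 59 to 75 bases long, could therefore not be found.

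**Figure D1:**
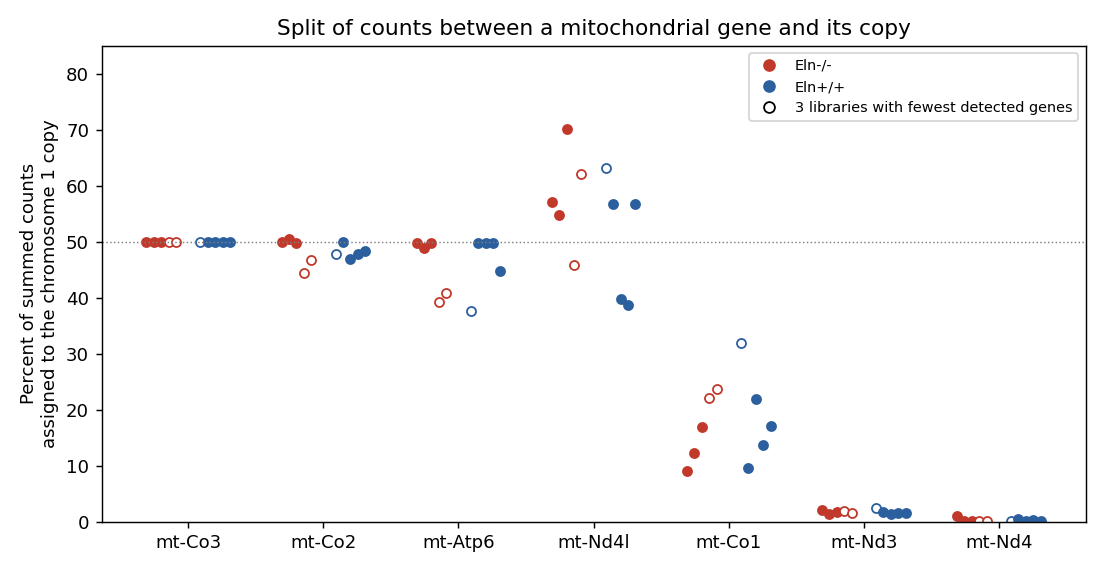
Percent of the summed counts of a mitochondrial gene and its chromosome 1 copy that was assigned to the copy (y axis), for 7 genes, in each of 5 Eln-/- (red) and 5 Eln+/+ (blue) libraries. Open circles are the 3 low-detection libraries and the dotted line marks 50. The copy of mt-Co3 sits between 49.97% and 49.99% in all 10 libraries, while the copies of mt-Nd3 and mt-Nd4 lie at or under 2.51%.

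Mitochondrially encoded genes took 1.13%, 1.05%, 1.83%, 1.62% and 1.95% of all counts in Eln-/- replicates 1 to 5, against 1.29%, 1.13%, 1.42%, 1.19% and 1.66% in Eln+/+ replicates 1 to 5. The genotypes overlapped, and the Eln-/- libraries held both the lowest and the highest share. The mean was 1.52% ± 0.407 in Eln-/- and 1.34% ± 0.211 in Eln+/+ (SD, n = 5 each). The 95% Wilson intervals of these shares reached at most 0.00484 percentage points to either side and cover counting error only. With the chromosome 1 copies added, the shares were 1.42%, 1.5%, 2.68%, 2.04% and 2.75% in Eln-/- and 1.75%, 1.59%, 1.94%, 1.71% and 2.22% in Eln+/+. Without the 3 low-detection libraries, the difference of the means, Eln-/- minus Eln+/+, was -0.0119 percentage points, against 0.180 with all 10. With nuclear ribosomal RNA taken out of the library totals it was 0.201 percentage points, and the shares ran from 1.06% to 2.06% in Eln-/- and from 1.14% to 1.71% in Eln+/+.

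Over the 10 libraries the protein genes held 64.2% of the mitochondrial counts, the rRNA genes 35.7% and the tRNA genes 0.0968%. These are shares of counts from mRNA sequencing, not of the RNA in the cells. How evenly the library preparation captured each class was not tested. Protein genes took 0.940% ± 0.244 of the library in Eln-/- and 0.823% ± 0.108 in Eln+/+. The rRNA genes took 0.174%, 0.339%, 0.619%, 0.935% and 0.802% in Eln-/-, against 0.613%, 0.290%, 0.515%, 0.429% and 0.717% in Eln+/+. The ratio of protein to rRNA counts was 5.51, 2.08, 1.95, 0.725 and 1.43 in Eln-/- replicates 1 to 5, against 1.10, 2.88, 1.75, 1.78 and 1.32 in Eln+/+ replicates 1 to 5. It was lowest in Eln-/- replicate 4, and the genotypes overlapped. With the copies added to the protein genes the ratio was 7.15, 3.43, 3.33, 1.17 and 2.43 in Eln-/- and 1.85, 4.48, 2.77, 2.98 and 2.10 in Eln+/+, with the same library lowest.

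**Figure D2:**
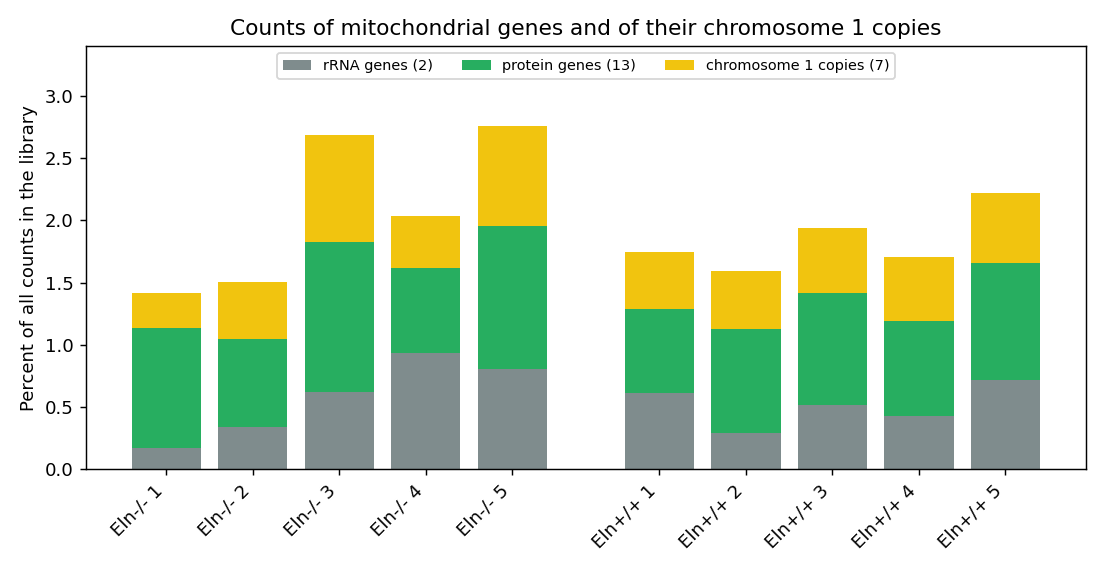
Percent of all counts of a library (y axis) in the 2 rRNA genes (grey), the 13 protein genes (green) and the 7 chromosome 1 copies (yellow), stacked, for Eln-/- replicates 1 to 5 and Eln+/+ replicates 1 to 5. The tRNA genes, at most 0.00706%, are not drawn. The full height runs from 1.42% to 2.75% in Eln-/- and from 1.59% to 2.22% in Eln+/+.

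Of the 36 genes, 24 passed the filter on low counts, and the other 12 are all tRNA genes. Among the 24, edgeR's quasi-likelihood test with Benjamini-Hochberg adjustment over all 15718 genes called none between Eln-/- and Eln+/+, where it called 0% of all genes tested. None of the 24 had an unadjusted p under 0.05, where 0.515% of all genes did. The adjusted p was 1.00 for each of the 24. Eln was itself not called, with a log2 fold change of -12.19 (SE 1.64), genotypes that did not overlap and an edgeR adjusted p of 0.152. DESeq2 called none of the 20 members to which it gave an adjusted p (0.0382% of all genes called). None of these 20 had an unadjusted DESeq2 p under 0.05 (1.25% of all genes). DESeq2 gave 4 tRNA genes no adjusted p, so they are not counted as tested by it. Limma called none of the 24 (0.0445% of all genes) and gave none an unadjusted p under 0.05 (6.51% of all genes). None of the 24 had genotypes that did not overlap, where 0.305% of all genes tested did. The log2 fold change, Eln-/- over Eln+/+, was above 0 for 21 of the 24, with a median of 0.57, and for 51.5% of all genes tested, with a median of 0.02. The median of the 24 was -0.15 without Eln-/- replicate 4, 0.98 without Eln+/+ replicate 1, and 0.37 over 26 members without the 3 low-detection libraries. Member genes share libraries and precursor RNAs, so they are not independent of each other.

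**Figure D3:**
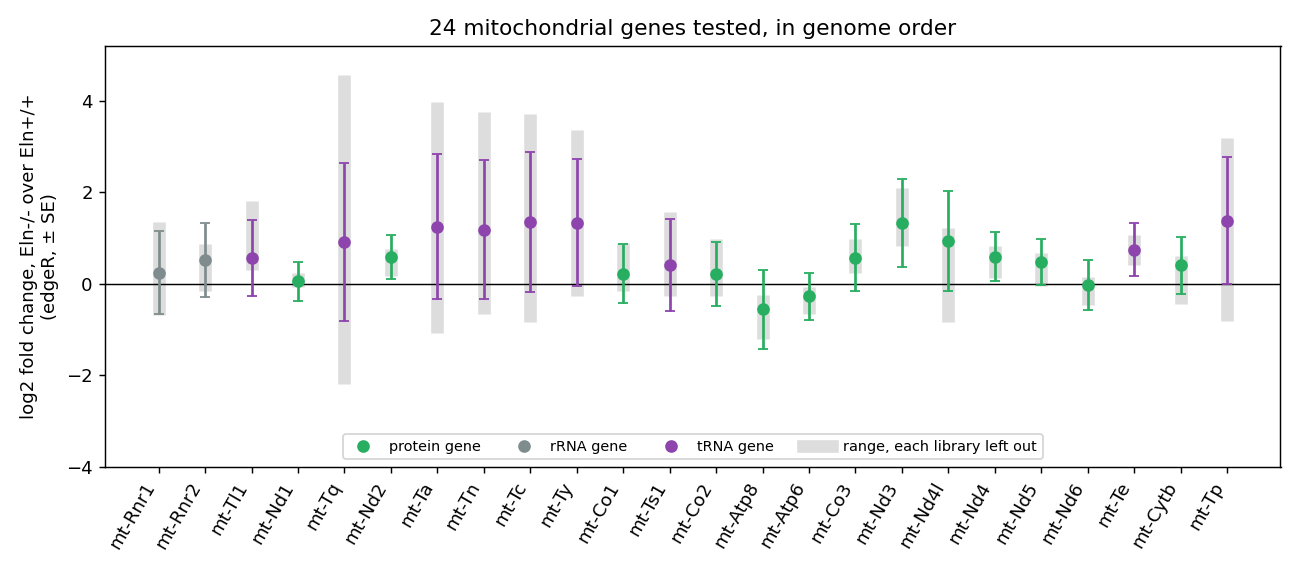
Log2 fold change, Eln-/- over Eln+/+, from edgeR (y axis) for the 24 mitochondrial genes tested, in genome order. Points are protein (green), rRNA (grey) and tRNA (purple) genes, bars are ± SE, and light bands span the values when each library was left out. The point lies above 0 for 21 genes, and the band of mt-Tq, from -2.19 to 4.57, is wider than that of any other gene plotted.

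The rRNA genes encode the small subunit (12S, mt-Rnr1) and large subunit (16S, mt-Rnr2) RNAs of the mitochondrial ribosome. The level of mt-Rnr2 (chrM:1094-2675, plus strand) was 1201, 2363, 4852, 16589.8 and 8400.4 CPM in Eln-/- replicates 1 to 5, against 8503, 1916, 4106, 3221 and 5781 CPM in Eln+/+ replicates 1 to 5. Eln-/- replicate 4 was the highest library and Eln-/- replicate 1 the lowest, so the Eln+/+ range fell inside that of Eln-/-. The mean was 6681 ± 6188 CPM for Eln-/- and 4705 ± 2546 CPM for Eln+/+ (SD, n = 5 each), with a log2 fold change of 0.51 (SE 0.81), and of -0.40 when the 3 low-detection libraries were left out. It was -0.15 without Eln-/- replicate 4 and 0.86 without Eln+/+ replicate 1.

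For mt-Rnr1 (chrM:70-1024, plus strand) the values were 143, 213, 484, 2676 and 1076 CPM in Eln-/- and 2414, 211, 379, 327 and 552 CPM in Eln+/+. Eln-/- replicate 4 and Eln+/+ replicate 1 were the highest of their genotypes. The log2 fold change was 0.24 (SE 0.91), -0.69 without Eln-/- replicate 4, 1.35 without Eln+/+ replicate 1 and -0.38 without the 3 low-detection libraries. The ratio of mt-Rnr2 to mt-Rnr1 counts per kb was 5.08, 6.71, 6.05, 3.74 and 4.71 in Eln-/- and 2.13, 5.48, 6.54, 5.94 and 6.32 in Eln+/+. The 3 low-detection libraries held the 3 lowest values.

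Complex I, NADH dehydrogenase, takes electrons from NADH, and 7 of its subunits are mitochondrially encoded. The level of mt-Nd1 was 573, 249, 341, 570.2 and 399 CPM in Eln-/- against 591, 352, 448, 248 and 414 CPM in Eln+/+. It varied least of the rRNA and protein genes, 2.38-fold between the lowest and highest library, and the genotypes overlapped nearly in full. Its log2 fold change was 0.05 (SE 0.42). For mt-Nd2 the values were 164, 219, 398, 232 and 682 CPM in Eln-/- and 145, 181, 298, 199 and 313 CPM in Eln+/+, with a log2 fold change of 0.58 (SE 0.48). Eln-/- replicates 3 and 5 lay above the other Eln-/- libraries, and without the 3 libraries the value was 0.09.

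The level of mt-Nd3 was 30.9, 181, 332, 1421 and 1246 CPM in Eln-/- against 664, 83.8, 68.1, 135 and 323 CPM in Eln+/+. Eln-/- replicates 4 and 5 were above every other library and Eln-/- replicate 1 was below every other one. The mean was 642 ± 643 CPM for Eln-/- and 255 ± 250.1 CPM for Eln+/+ (SD, n = 5 each), and the log2 fold change of 1.33 (SE 0.96) was the highest among the protein genes. It was 0.83 without Eln-/- replicate 4, 2.10 without Eln+/+ replicate 1 and 0.26 without the 3 low-detection libraries, of which Eln-/- replicates 4 and 5 are 2.

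For mt-Nd4 the values were 519, 82.8, 123, 290.3 and 222 CPM in Eln-/- and 255, 168, 138, 83.1 and 176 CPM in Eln+/+, with a log2 fold change of 0.59 (SE 0.54). Its neighbour mt-Nd4l, which shares 7 bases with it, was at 35.5, 2.42, 1.49, 5.74 and 1.43 CPM in Eln-/- and at 0.529, 7.86, 6.11, 4.56 and 5.26 CPM in Eln+/+. Eln-/- replicate 1 was the highest library for both genes, and Eln+/+ replicate 1 was the lowest for mt-Nd4l. The log2 fold change of mt-Nd4l was 0.94 (SE 1.09) and turned to -0.83 without Eln-/- replicate 1.

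The longest member, mt-Nd5 (1824 bases), was at 234, 41.5, 79.3, 114 and 60.9 CPM in Eln-/- and 68.4, 87.4, 111, 60.5 and 54.7 CPM in Eln+/+, with a log2 fold change of 0.47 (SE 0.50). Eln-/- replicate 1 was above every other library, and the value was -0.06 without it. The gene overlaps 14 bases of mt-Nd6, the protein gene annotated on the minus strand, where reads cannot be assigned with certainty since the strand setting of the counting is not known. The level of mt-Nd6 was 45.01, 18.3, 22.2, 10.5 and 15.3 CPM in Eln-/- and 11.6, 27.2, 32.3, 21.9 and 20.97 CPM in Eln+/+. The 3 low-detection libraries were the lowest 3. Its log2 fold change was -0.03 (SE 0.54), and 0.18 without those 3.

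Complex III passes electrons to cytochrome c, and its cytochrome b subunit is encoded by mt-Cytb. Its level was 2312, 354, 381, 726 and 395 CPM in Eln-/- against 534, 774, 765, 314 and 769 CPM in Eln+/+. Eln-/- replicate 1 was above every other library, and the other 9 lay between 314 and 774 CPM. The log2 fold change was 0.40 (SE 0.62) and -0.45 without Eln-/- replicate 1.

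Complex IV, cytochrome c oxidase, reduces oxygen, and mt-Co1 to mt-Co3 encode its catalytic core. The level of mt-Co1 was 1088, 338, 541, 1815 and 945 CPM in Eln-/- against 1966, 461, 508, 283 and 834 CPM in Eln+/+. For mt-Co2 it was 372, 117, 249.5, 1019 and 607 CPM in Eln-/- and 1052, 166, 270.04, 158 and 379 CPM in Eln+/+. With TMM scaling both genes were highest in Eln+/+ replicate 1 and next in Eln-/- replicate 4. As CPM of the unscaled totals, mt-Co1 was highest in Eln-/- replicate 1 (1410.1), above Eln+/+ replicate 1 (1103), and mt-Co2 was highest in Eln+/+ replicate 1 (590.1) and next in Eln-/- replicate 5 (513). Both had a log2 fold change of 0.22 (SE 0.65 and 0.70). Without Eln-/- replicate 4 the values were -0.15 for mt-Co1 and -0.26 for mt-Co2, and without Eln+/+ replicate 1 they were 0.88 and 0.98.

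For mt-Co3 the values were 749, 2220.1, 4572, 6558 and 8122 CPM in Eln-/- and 5833, 1652, 1809, 2287 and 3423 CPM in Eln+/+. Eln-/- replicate 1 was the lowest library and Eln-/- replicate 5 the highest. The mean was 4444 ± 3025 CPM for Eln-/- and 3001 ± 1728 CPM for Eln+/+ (SD, n = 5 each), with a log2 fold change of 0.57 (SE 0.73) and of 0.14 without the 3 libraries. With the counts of its copy added the log2 fold change was 0.57 (SE 0.78).

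ATP synthase makes ATP from the proton gradient, and mt-Atp6 and mt-Atp8 encode parts of its membrane portion. The level of mt-Atp6 was 919, 1131, 2454, 1153 and 779 CPM in Eln-/- against 837, 1546, 2418, 1795 and 1231 CPM in Eln+/+. For mt-Atp8 it was 368, 414, 911, 60.9 and 91.5 CPM in Eln-/- and 29.8, 617, 969, 718 and 388 CPM in Eln+/+. Replicate 3 of each genotype was the highest for both genes, and the 3 low-detection libraries were the lowest 3 for mt-Atp8. These are, with mt-Nd6, the 3 members with a log2 fold change below 0: -0.28 (SE 0.52) for mt-Atp6 and -0.56 (SE 0.87) for mt-Atp8. Leaving out Eln-/- replicate 3 gave -0.66 for mt-Atp6 and -1.22 for mt-Atp8, and leaving out Eln+/+ replicate 3 gave -0.07 and -0.25.

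**Figure D4:**
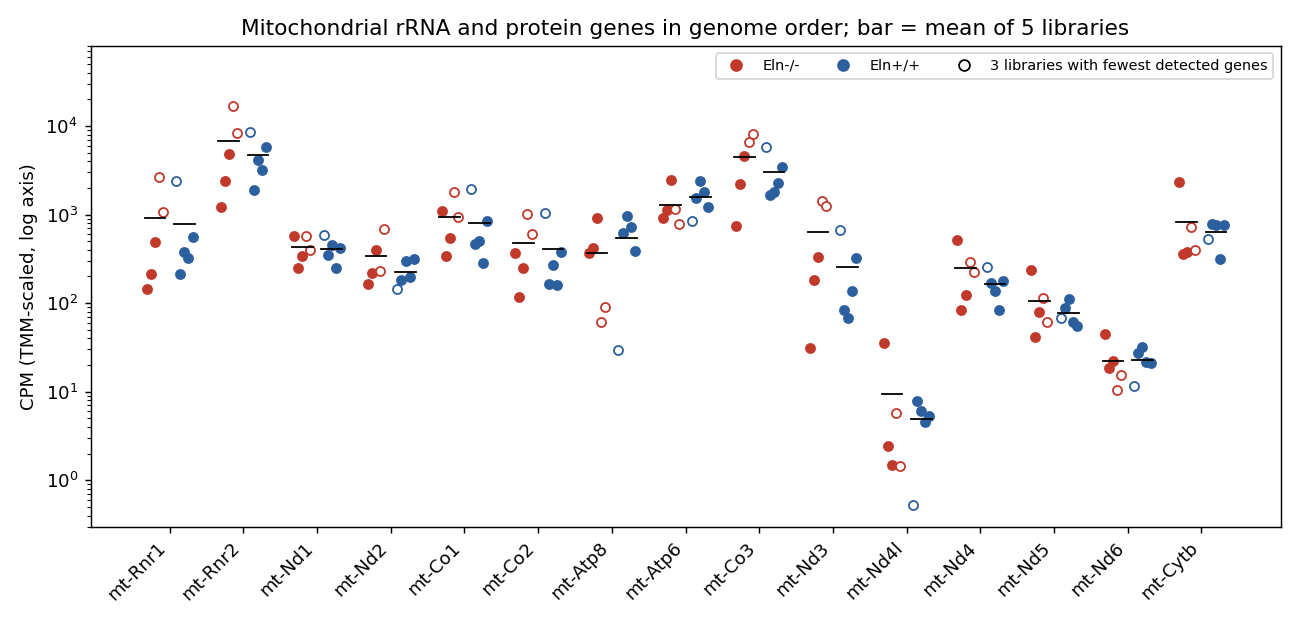
CPM after TMM scaling on a log axis (y axis) for the 2 rRNA and 13 protein genes in genome order, with 5 Eln-/- libraries (red) left of 5 Eln+/+ libraries (blue) for each gene. Bars are means and open circles are the 3 low-detection libraries. The genotypes overlap for every gene shown, and mt-Atp8 ranges from 29.8 to 969 CPM with the 3 open circles lowest.

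The genes mt-Atp8 and mt-Atp6 overlap by 43 bases, and mt-Nd4l and mt-Nd4 by 7, and in mammals each pair is known to stay together on a shared messenger RNA. The ends of mt-Atp8 (chrM:7890-7969) and mt-Nd4l (chrM:10134-10173), both on the plus strand and from GENCODE release M21 on GRCm38, are shown with the bases shared with the next gene in capitals, since reads there belong to both genes.
mt-Atp8: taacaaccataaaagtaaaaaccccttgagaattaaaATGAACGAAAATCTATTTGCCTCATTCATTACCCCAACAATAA
mt-Nd4l: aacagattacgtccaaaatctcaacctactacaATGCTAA

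With copies added, the ratio of mt-Atp6 to mt-Atp8 counts per kb was 1.49, 1.60, 1.61, 9.33 and 4.32 in Eln-/- replicates 1 to 5, against 13.5, 1.49, 1.49, 1.49 and 1.72 in Eln+/+ replicates 1 to 5. In 7 libraries it lay between 1.49 and 1.72, and the 3 low-detection ones lay above them. No annotated copy of mt-Atp8 was found, so a copy was added to mt-Atp6 only. Without it the ratio was 0.748, 0.818, 0.807, 5.67 and 2.55 in Eln-/- and 8.43, 0.751, 0.747, 0.749 and 0.951 in Eln+/+. Whether the chromosome 1 block also takes reads of mt-Atp8 was not tested. The ratio of mt-Nd4 to mt-Nd4l per kb, with copies added, was 1.36, 3.33, 5.29, 5.91 and 12.7 in Eln-/- and 38.3, 2.00, 2.94, 2.41 and 3.11 in Eln+/+. In Eln+/+ replicate 1 it rests on 8 counts of mt-Nd4l and 13.7 of its copy.

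**Figure D5:**
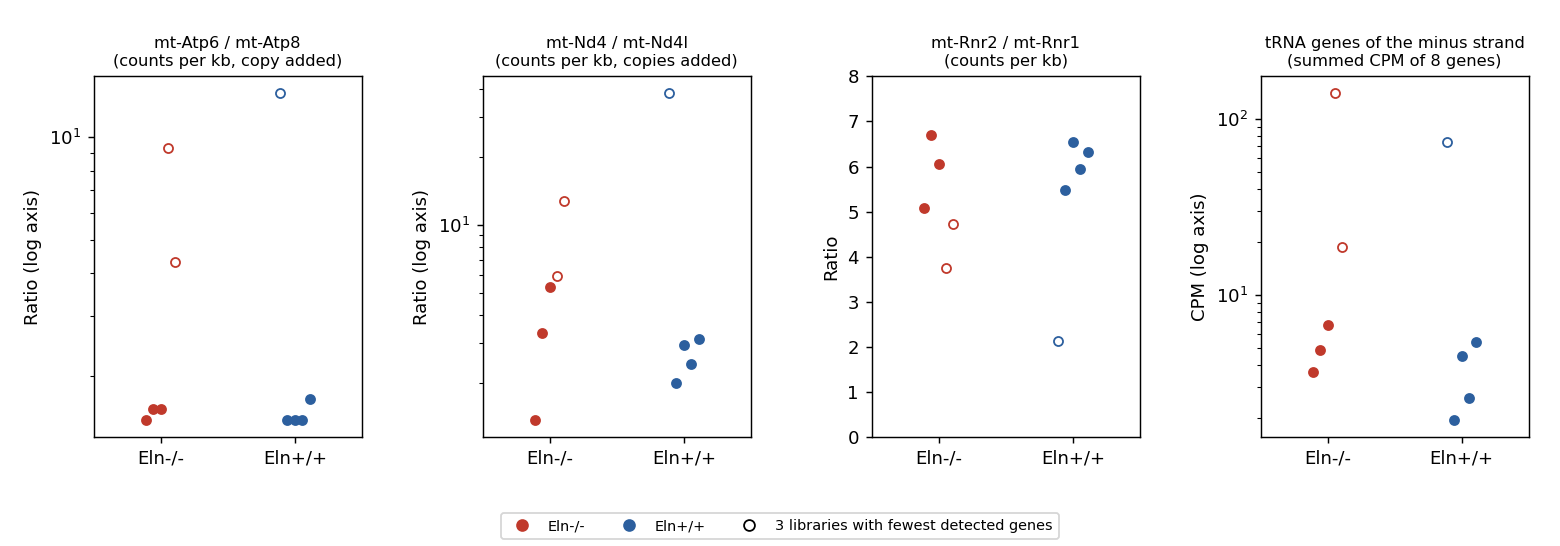
Ratios of counts per kb for mt-Atp6 over mt-Atp8 and mt-Nd4 over mt-Nd4l (copies added, log axes) and mt-Rnr2 over mt-Rnr1 (linear axis), and summed CPM of the 8 tRNA genes of the minus strand (log axis), with 5 Eln-/- libraries left of 5 Eln+/+ libraries in each panel. No copy was added to mt-Atp8. Open circles are the 3 low-detection libraries. They hold the 3 highest values of mt-Atp6 over mt-Atp8, the 3 lowest of mt-Rnr2 over mt-Rnr1 and the 3 highest tRNA sums, and the filled circles of the genotypes overlap in every panel.

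By complex, with copies added, complex IV held 35.8%, 57.2%, 57.9%, 76.3% and 80.7% of the protein-gene counts in Eln-/- and 81.9%, 43.5%, 38.4%, 49.2% and 64.6% in Eln+/+. Complex V held 22.9%, 29.7%, 32.6%, 8.65% and 6.11% in Eln-/- and 6.78%, 38.7%, 46.5%, 40.6% and 19.7% in Eln+/+. The 3 low-detection libraries had the least complex V in the set. Complex I held 7.35% to 17.2% in Eln-/- and 7.18% to 9.93% in Eln+/+. Complex III held 1.71% to 24.1% in Eln-/- and 2.64% to 8.13% in Eln+/+, and Eln-/- replicate 1 was the highest library for both.

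Levels of different genes were compared as CPM of the unscaled library total per kb of gene, with copies added, as the mean of the 10 libraries. The order was mt-Co3 (8542), mt-Atp6 (4450), mt-Rnr2 (3034), mt-Atp8 (2678), mt-Co2 (1034), mt-Nd3 (1024), mt-Cytb (706), mt-Rnr1 (663), mt-Co1 (621), mt-Nd1 (436), mt-Nd2 (281), mt-Nd4 (152), mt-Nd4l (63.6), mt-Nd5 (53.5) and mt-Nd6 (49.5). Ranges of neighbours in this order overlapped between libraries for every pair. The mt-Co3 range, 2475 to 17522, lay wholly above that of mt-Co2, 453 to 1655, and of each later gene except mt-Nd3 and mt-Cytb. No copy was added to mt-Atp8. Without the copies mt-Co3 was still first (4272), followed by mt-Rnr2 (3034), mt-Atp8 (2678) and mt-Atp6 (2300). The order is one of counts, since the capture of rRNA beside messenger RNA was not tested.

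The gene mt-Co3 ranked first in 7 of 10 libraries, and mt-Atp6 ranked first in the others: Eln-/- replicate 1 and Eln+/+ replicates 2 and 3. The rank of mt-Atp8 ran from 2 to 11 and that of mt-Nd3 from 3 to 14, while mt-Nd1 stayed between 7 and 10. Spearman's rho over the 15 genes, given as a description, had a median of 0.808 between Eln-/- libraries (0.375 to 0.95), 0.905 between Eln+/+ libraries (0.679 to 0.971) and 0.850 between genotypes (0.457 to 0.975). The lowest 3 of these values all involved Eln-/- replicate 1. Within genotypes, the SD of log2 CPM had a median of 1.18 over the 24 members tested, 1.83 over all genes tested and 1.27 over the 811 genes whose log2 CPM averaged 8 or more.

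The tRNA genes took 0.000585%, 0.000717%, 0.000922%, 0.00706% and 0.00169% of the counts in Eln-/- and 0.00436%, 0.000338%, 0.000629%, 0.000400% and 0.000686% in Eln+/+. Eln-/- replicate 4 and Eln+/+ replicate 1 were above the rest. The tRNA gene mt-Th has no value here. The 12 tRNA genes that did not pass the filter had 4 to 82 counts over all libraries and at most 18 in a library.

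All 8 tRNA genes annotated on the minus strand passed the filter, and 1 of 13 on the plus strand, mt-Tl1, did. The minus-strand genes held 80%, 88.5%, 84.99%, 96.9% and 93.8% of the tRNA counts in Eln-/- and 94.9%, 77.8%, 81.5%, 78.5% and 88.6% in Eln+/+. The 95% Wilson intervals of these shares reached at most 5.55 percentage points to either side. Their summed CPM was 3.61, 4.82, 6.75, 140.9 and 18.8 in Eln-/- and 73.7, 1.93, 4.46, 2.60 and 5.37 in Eln+/+, so the 3 low-detection libraries were the highest 3. The plus-strand sum was 0.904, 0.625, 1.19, 4.50 and 1.24 CPM in Eln-/- and 3.97, 0.551, 1.01, 0.713 and 0.691 CPM in Eln+/+. Since the strand setting of the counting is not known, these counts may include reads from the opposite strand of the same bases.

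With the 10 libraries pooled, the tRNA genes with the most counts were mt-Tq (glutamine), mt-Ts1 (serine) and mt-Ta (alanine), with 62.2% of tRNA counts. Much of this pool came from 2 low-detection libraries. Eln-/- replicate 4 gave 2003 of the 5735 tRNA counts and 840 of the 1698 mt-Tq counts. Eln+/+ replicate 1 gave 1174 and 506. Every other library had more counts of mt-Ts1 than of mt-Tq, most narrowly Eln-/- replicate 5 (116 and 115). All 3 genes lie on the minus strand, at chrM:3772-3842, chrM:6870-6938 and chrM:5018-5086. Their sequences, from GENCODE release M21 on GRCm38, are shown because of this pooled rank. Capitals mark the 3 bases that mt-Tq shares with mt-Ti and the 3 that mt-Ts1 shares with mt-Co1, on opposite strands, while mt-Ta shares none.
mt-Tq: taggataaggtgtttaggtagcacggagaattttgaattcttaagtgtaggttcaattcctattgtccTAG
mt-Ts1: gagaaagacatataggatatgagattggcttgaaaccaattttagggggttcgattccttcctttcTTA
mt-Ta: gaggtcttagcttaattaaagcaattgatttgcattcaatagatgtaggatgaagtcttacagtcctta

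The level of mt-Tq was 0.178, 0.869, 0.852, 61.0 and 4.33 CPM in Eln-/- against 33.5, 0.229, 0.954, 0.523 and 0.602 CPM in Eln+/+. For mt-Ta it was 0.164, 0.640, 1.00, 23.2 and 2.60 CPM in Eln-/- and 10.2, 0.0918, 0.345, 0.396 and 0.602 CPM in Eln+/+. For mt-Ts1 it was 2.48, 1.40, 2.56, 10.9 and 4.37 CPM in Eln-/- and 10.4, 0.964, 1.85, 0.760 and 2.41 CPM in Eln+/+. All 3 were highest in Eln-/- replicate 4 and next in Eln+/+ replicate 1, but as CPM of the unscaled totals mt-Ts1 was at 5.29 in Eln-/- replicate 4 and at 5.83 in Eln+/+ replicate 1.

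The log2 fold change was 0.91 (SE 1.72) for mt-Tq, 1.25 (SE 1.58) for mt-Ta and 0.41 (SE 1.01) for mt-Ts1, and between 0.57 and 1.38 for the other 6 tRNA genes tested. Without Eln-/- replicate 4 it was -2.19 for mt-Tq and -1.07 for mt-Ta, and without Eln+/+ replicate 1 it was 4.57 and 3.97. In the fit without Eln+/+ replicate 1, 7 tRNA genes had an unadjusted edgeR p under 0.05, where 2.13% of all genes tested did, and none passed the adjusted threshold.

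Proteins that make and use these RNAs are encoded in the nucleus, and no gene of 6 such lists was called by edgeR or had an unadjusted p under 0.05, beside 0% called among all genes tested. Among all genes tested 0.515% had such a p, and 51.5% had a log2 fold change above 0, with a median of 0.02. Counts and medians of the lists are from all 10 libraries. No gene of the lists had genotypes that did not overlap, where 0.305% of all genes did. Of 13 tested genes of mitochondrial transcription and DNA maintenance, 6 had a log2 fold change above 0, with a median of -0.15. Tfb2m, a transcription initiation factor, averaged 12.4 ± 4.45 CPM in Eln-/- libraries and 19.3 ± 3.17 CPM in Eln+/+ libraries (SD, n = 5 each). Polg2, the accessory subunit of the DNA polymerase, averaged 6.45 ± 4.396 CPM in Eln-/- libraries and 2.87 ± 2.32 CPM in Eln+/+ libraries. Ssbp1, which binds unwound mitochondrial DNA, was at 117 ± 114 CPM for Eln-/- and 97.2 ± 99.1 CPM for Eln+/+. Its highest values were in the low-detection libraries: 310 and 130 CPM in Eln-/- replicates 4 and 5 and 272 CPM in Eln+/+ replicate 1. The other libraries held 28.2 to 76.2 CPM of Ssbp1. Mrpl12, a ribosomal protein also linked to transcription, was at 96.1 ± 47.5 CPM for Eln-/- and 80.8 ± 27.7 CPM for Eln+/+.

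Among 21 genes of mitochondrial RNA processing and stability, 10 were above 0, with a median of -0.09. Fastk, whose family acts on mitochondrial RNA, had a log2 fold change of 1.02 (SE 0.68) and Nsun4, an rRNA methyltransferase, of -0.60 (SE 0.61). Hsd17b10, a subunit of the nuclease that cuts the 5' ends of tRNAs, was at 277 ± 202 CPM in Eln-/- libraries, against 260.0 ± 187 CPM in Eln+/+ libraries (SD, n = 5 each). Its highest values were in the low-detection libraries: 576 and 379 CPM in Eln-/- replicates 4 and 5 and 581 CPM in Eln+/+ replicate 1. The other libraries held 80.2 to 237 CPM of Hsd17b10. Slirp, the partner of Lrpprc in keeping messenger RNAs stable, was at 44.8, 82.7, 141, 2079 and 314 CPM in Eln-/- and 1438, 49.95, 137, 98.6 and 136 CPM in Eln+/+, highest in Eln-/- replicate 4 and Eln+/+ replicate 1 like mt-Rnr1.

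Of 13 translation genes 8 were above 0 (median 0.09), among them the elongation factor Tsfm at 0.67 (SE 0.44), while the ribosome recycling factors Gfm2 and Mrrf had -0.56 (SE 0.68) and -0.29 (SE 0.50). Of 75 mitoribosomal protein genes 55 were above 0, with a median of 0.16. The values ran from Mrpl39 at -0.52 (SE 0.45) to Mrpl43 at 0.82 (SE 0.58) among those named, with the abundant Mrpl33 at 0.21 (SE 1.19) and Mrpl14 at 0.74 (SE 1.21). With TMM scaling the 3 low-detection libraries were the highest 3 for Mrpl33, Mrpl14, Mrpl43 and Tsfm. They were not for Mrpl39, Gfm2 or Mrrf. Of 4 tested regulators of mitochondrial biogenesis 2 were above 0 (median 0.11), with Gabpa at -0.49 (SE 1.33), Pprc1 at 0.35 (SE 1.24) and Nrf1 at -0.06 (SE 1.32).

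The nuclear subunits of the respiratory chain join the mitochondrially encoded ones in the same complexes. Of 79 tested genes for them 69 were above 0, where 51.5% of all genes tested were. Their median log2 fold change was 0.34, against 0.40 for the 13 mitochondrial protein genes and 0.02 for all genes. How far this median rests on the low-detection libraries was not tested. Cyc1, cytochrome c1 of complex III, averaged 287 ± 163 CPM in Eln-/- libraries, against 199 ± 55.8 CPM in Eln+/+ libraries, and Ndufa10, of complex I, 46.1 ± 29.4 CPM in Eln-/- libraries, against 69.5 ± 19.96 CPM in Eln+/+ libraries (SD, n = 5 each). Cox4i1, of complex IV, was at 302, 841, 1368, 8219 and 3520 CPM in Eln-/- and 5776, 535, 958, 869 and 1603 CPM in Eln+/+. Atp5e, of complex V, was at 102, 329, 611, 12887 and 2129 CPM in Eln-/- and 8819, 173, 501, 390 and 652 CPM in Eln+/+. For both genes the 3 low-detection libraries were the highest 3, with and without TMM scaling. The same held for mt-Nd3 and mt-Co3 only with TMM scaling: as CPM of the unscaled totals, mt-Nd3 was higher in Eln-/- replicate 3 (385) than in Eln+/+ replicate 1 (372), and mt-Co3 was highest in Eln-/- replicates 5 (6870) and 3 (5305) and Eln+/+ replicate 5 (3875).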

How the data were processed

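The single table, as deposited by the authors, holds estimated counts for each gene in each library, with no scaling for depth. Per the submitters' processing notes STAR, DESeq2 and the build mm10 were used. Which program counted, on which annotation and with what strand setting, is not given in the sources used here. Per library, 23.5% to 48.8% of values were not whole (tolerance 1e-06), and all were rounded before testing. The spans of 27876 of 28165 genes (99.0%), and of all 36 mitochondrial genes, were the same as in GENCODE release M21. The gene mt-Th was not analysed here.

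The filter was filterByExpr of edgeR by genotype (15718 genes left). Libraries were scaled by TMM and compared, Eln-/- over Eln+/+, by edgeR's quasi-likelihood test (two-sided, genotype only) with Benjamini-Hochberg adjustment over all genes at 0.05. SE is the log2 fold change divided by the square root of F. CPM was computed with the TMM factors and log2 CPM with a prior count of 2. Shares use unscaled library totals. Nuclear matches came from BLAST of GENCODE transcripts (at least 90% identity over 100 bases). R was version 4.3.3 and its packages were DESeq2 1.42.0, limma 3.58.1 and edgeR 4.0.16.

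Every protein and rRNA gene, the 3 tRNA genes with the highest mean count, Eln, and the 2 members of lowest p and 2 most abundant members of each nuclear list were named. Members and lists were chosen with earlier results of these data known. Replicate numbers were checked for pairing by correlating deviations from the genotype means. Alternatives were other scaling, no filter, DESeq2, limma, a replicate block, each library left out, omission of the 3 low-detection libraries (fewest genes with a count), and chromosome 1 copies added. PCR reads carried no molecular identifiers that the labels mention, so intervals cover counting error only.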

Additional observations from a re-analysis of the deposited data

Results flagged for a closer look

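In 52 groups of 5 libraries, 15 had a library that stood far from the other 4, by Dixon's test at the 95% level. Chance gives about 1 in 20 only for independent groups of normally distributed values. Values here were not log-transformed, and groups share libraries and genes, so the 15 cannot be set against that rate. In Eln-/- libraries, mt-Atp6 was at 2454 CPM in replicate 3 (others 779 to 1153), mt-Cytb at 2312 CPM in replicate 1 (others 354 to 726) and mt-Nd4l at 35.5 CPM in replicate 1 (others 1.43 to 5.74). In Eln-/- replicate 4, mt-Tq was at 61.0 CPM (others 0.178 to 4.33), mt-Ta at 23.2 CPM (others 0.164 to 2.60) and the tRNA share at 0.00706% (others 0.000585% to 0.00169%).

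In Eln+/+ libraries every such value was in replicate 1. There mt-Co2 was at 1052 CPM (others 158 to 379), mt-Rnr1 at 2414 CPM (others 211 to 552), mt-Tq at 33.5 CPM (others 0.229 to 0.954), mt-Ts1 at 10.4 CPM (others 0.760 to 2.41), mt-Ta at 10.2 CPM (others 0.0918 to 0.602) and the tRNA share at 0.00436% (others 0.000338% to 0.000686%). The ratio per kb, copies added, was 13.5 for mt-Atp6 over mt-Atp8 (others 1.49 to 1.72) and 38.3 for mt-Nd4 over mt-Nd4l (others 2.00 to 3.11). The ratio of mt-Rnr2 to mt-Rnr1 per kb was 2.13, the lowest (others 5.48 to 6.54).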

How the results depend on the processing

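No member passed the threshold under any of 19 alternatives, where the smallest adjusted p given to a member was 0.876 and DESeq2 gave none to 4 tRNA genes (mt-Ta, mt-Tc, mt-Tp and mt-Tq). Of 456 log2 fold changes of members, 420 kept their direction and 36 turned, 23 of these with 1 library left out. Over all genes DESeq2 called 6, limma 7 and edgeR without Eln-/- replicate 1 called 1 (range 0 to 1 over libraries left out), against 0. Replicate numbers showed no consistent pairing (correlations -0.556, 0.51, 0.118, -0.381 and 0.092 for numbers 1 to 5, and own number best for 1 of 5). This check cannot exclude pairing, since differences between libraries of a genotype were large. With a replicate block 0 genes were called, the member median was 0.42, and mt-Cytb (-0.01) and mt-Nd4l (-0.55) turned. With library totals and no TMM factors, added after seeing the data as were the copies in the fit and the shares without 3 libraries, mt-Nd1 turned (-0.01). With limma these turned: mt-Co2 (-0.21), mt-Cytb (-0.11), mt-Nd1 (-0.05), mt-Nd4l (-0.85), mt-Nd5 (-0.21), mt-Rnr1 (-0.31) and mt-Rnr2 (-0.22). Without the 3 low-detection libraries, mt-Nd6 (0.18), mt-Rnr1 (-0.38) and mt-Rnr2 (-0.40) did. Leaving out each library gave -0.15 to 0.88 for mt-Co1, -0.26 to 0.98 for mt-Co2, -0.45 to 0.60 for mt-Cytb, -0.08 to 0.24 for mt-Nd1, -0.83 to 1.21 for mt-Nd4l, -0.06 to 0.68 for mt-Nd5, -0.47 to 0.15 for mt-Nd6, -0.69 to 1.35 for mt-Rnr1, -0.15 to 0.86 for mt-Rnr2, -1.07 to 3.97 for mt-Ta, -0.83 to 3.72 for mt-Tc, -0.66 to 3.76 for mt-Tn, -0.81 to 3.19 for mt-Tp, -2.19 to 4.57 for mt-Tq, -0.27 to 1.56 for mt-Ts1, -0.27 to 3.37 for mt-Ty, -0.66 to -0.07 for mt-Atp6, -1.22 to -0.25 for mt-Atp8, 0.23 to 0.98 for mt-Co3, 0.16 to 0.75 for mt-Nd2, 0.83 to 2.10 for mt-Nd3, 0.12 to 0.82 for mt-Nd4, 0.41 to 1.06 for mt-Te, 0.30 to 1.81 for mt-Tl1 and -0.15 to 0.98 for the member median. The causes were not tested.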
